A study of Homo sapiens with 6 samples.

Results

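The 10 genes described here belong to the epidermal growth factor (EGF) receptor system and were followed in U2OS cells, an established human osteosarcoma line, after inhibition of poly(ADP-ribose) glycohydrolase (PARG). They are the ligands HBEGF, AREG, EREG, TGFA and NRG1, the receptors EGFR and ERBB2, the sheddase ADAM17 and the receptor inhibitors LRIG1 and ERRFI1. These 10 of the 60708 gene identifiers counted were chosen by symbol, with the differences between inhibitor and solvent in these same libraries already known. Their differences are therefore given as a description, with no p-value, and nothing is supported with them. The 6 RNA sequencing libraries form a group of 3 from cells kept for 4 days in the solvent DMSO and a group of 3 from cells kept for 4 days in 25 µM PDD00017273, a small-molecule PARG inhibitor (PARGi). Both groups are wild-type cells of this single line in serum-containing medium, and the series calls the libraries biological triplicates without saying what was cultured separately.

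PARG is the enzyme that removes poly(ADP-ribose) chains from proteins. EGF-family ligands are made as membrane-anchored precursors, and proteases such as ADAM17 cut many of them free. A released ligand binds EGFR or a related ERBB receptor, the receptors pair and phosphorylate each other, and RAS-ERK and PI3K signalling follow. ERBB2 has no known ligand of its own and acts as a partner of the other receptors, NRG1 is a ligand of ERBB3 and ERBB4, and LRIG1 and ERRFI1 restrain active receptors. Several ligands and ERRFI1 are themselves transcribed in response to ERK activity, which makes the system one of feedback loops.

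The libraries held from 60286931 to 80605145 counts. Values are read counts scaled to library size (CPM) after trimmed-mean (TMM) scaling, with the SD over 3 libraries. Of 9 mesenchymal and bone genes, COL1A1 (4374 ± 268 CPM), VIM (2476 ± 57.7 CPM) and SPARC (1677 ± 17.1 CPM) were abundant in DMSO (SD, n = 3). RUNX2 stood at 83.3 ± 1.14, COL1A2 at 13 ± 1.38 and ALPL at 4.68 ± 0.208 CPM in DMSO (SD, n = 3). The bone-lineage genes IBSP and SP7 and the mesenchymal gene TWIST1 were at or near 0 in every library. Markers of epithelial, blood, endothelial, hepatic and neuronal cells summed over 6 genes to 6.42 ± 0.268 CPM with DMSO against 6.26 ± 0.249 with the inhibitor (SD, n = 3 each). Of these 6, CDH1 was higher in PARGi (0.718 ± 0.0247 to 1.14 ± 0.208 CPM, edgeR adjusted p = 0.0104), and ALB had the lowest level, with no count in 2 DMSO libraries. EPCAM, also an epithelial marker, went the other way, from 3.53 ± 0.236 to 3.02 ± 0.0457 CPM, and did not pass (log2 fold change -0.22, edgeR adjusted p = 0.0912).

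Of the 10 genes, 7 were higher and 1 was lower in PARGi past an adjusted p of 0.05 in edgeR's quasi-likelihood test over all genes, and ERBB2 and ADAM17 did not pass. Over the 20409 genes tested, 24.3% passed this threshold, 13.2% as higher and 11.0% as lower. Upper-quartile scaling moved the share of higher genes among those called from 54.5% to 40.5%. All 10 genes had enough counts to be tested, and the DMSO libraries alone sufficed for that, the fewest being the 68 counts of AREG. For 9 of them the 3 libraries of a group did not overlap with those of the other, which was so for 38.0% of the genes tested. The median log2 fold change was 0.39 over the 10 genes and -0.007 over all tested genes. Because the genes were chosen with this contrast known, these counts are not evidence about the pathway. The gene lists below were also chosen with earlier results of these data known, so their counts and p-values are a description too. In RNA from whole cultures, a change in the share of cells that make a transcript and a change in the amount per cell cannot be told apart.

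**Figure D1:**
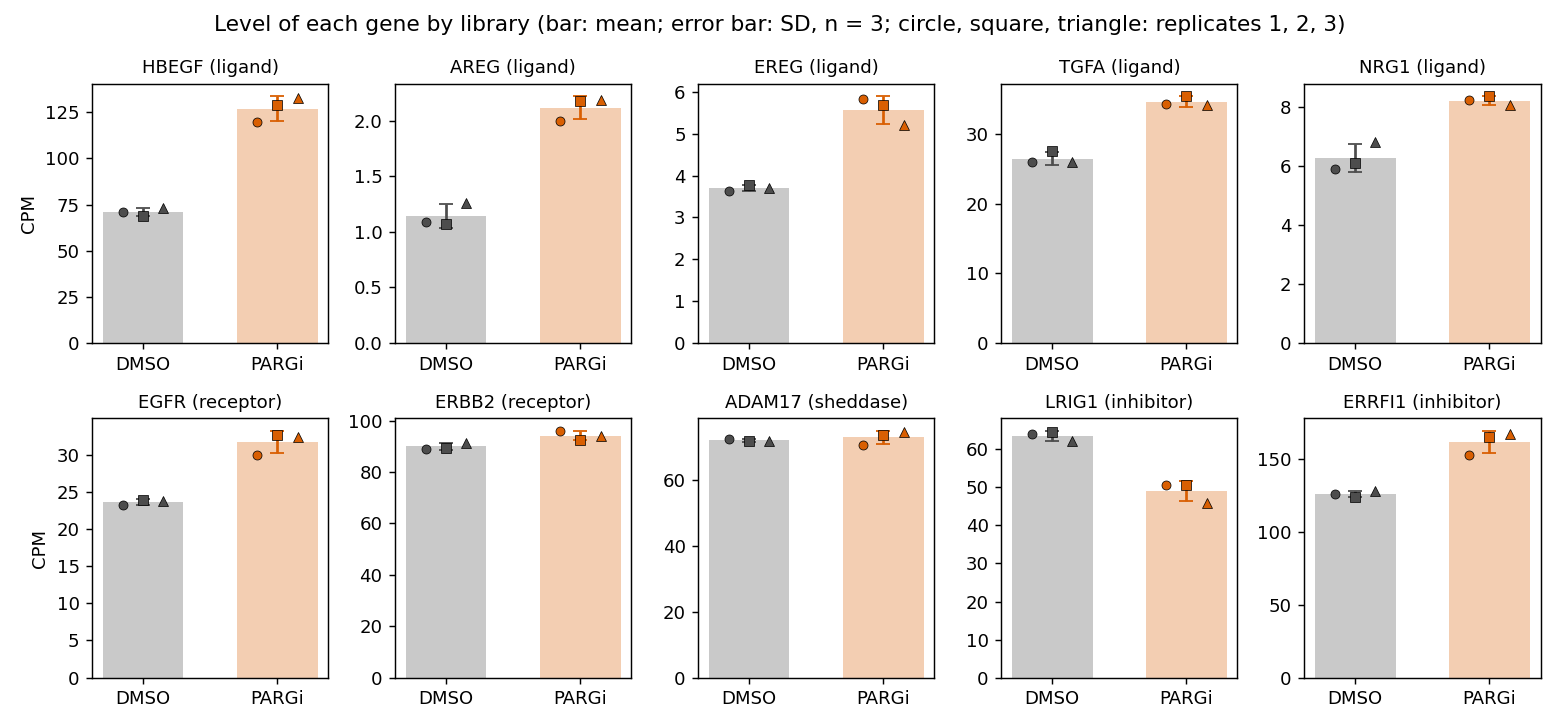
Normalised level (CPM, vertical axes from 0) of each of the 10 genes in DMSO and PARGi; bars are means, error bars the SD over 3 libraries, and the circle, square and triangle are replicates 1, 2 and 3. The points of the 2 groups do not overlap except for ADAM17, and LRIG1 is the one gene whose PARGi points all lie below the DMSO points.

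Among the ligands, HBEGF, which encodes heparin-binding EGF-like growth factor, was by far the most abundant. It stood at 70.9, 68.7 and 73.2 CPM in DMSO replicates 1 to 3 and at 120.0, 129 and 133 CPM in PARGi replicates 1 to 3. The lowest PARGi library thus lay well above the highest DMSO library. On the log2 scale HBEGF was 0.85 higher in PARGi (SE 0.034, 95% confidence interval from 0.78 to 0.92), or 1.80-fold with an interval from 1.71 to 1.89. Only 1.89% of the tested genes lay farther from 0 in either direction.

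AREG, which encodes amphiregulin, showed a fold change of like size at a level near 1 CPM. Its raw counts were 69, 68 and 94 in DMSO and 120, 161 and 176 in PARGi, which correspond to 1.09, 1.07 and 1.26 CPM against 2.00, 2.18 and 2.19 CPM. The groups did not overlap, but the counts were few and the interval was wide: the log2 fold change was 0.89 (SE 0.14, 95% confidence interval from 0.61 to 1.17). The interval of AREG contains that of HBEGF whole.

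EREG, which encodes epiregulin, stood at 3.62, 3.77 and 3.70 CPM in DMSO and at 5.84, 5.68 and 5.20 CPM in PARGi. The DMSO libraries lay close together and all PARGi libraries lay above them, with replicate 3 the lowest. Its log2 fold change was 0.59 (SE 0.082, 95% confidence interval from 0.42 to 0.76). This interval lies below that of HBEGF and overlaps that of AREG. The difference in fold change between ligands was not tested.

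AREG and EREG are neighbours on chromosome 4. In GENCODE 29 (GRCh38), EREG runs from 74365143 to 74388751 and AREG from 74445134 to 74455009, both on the plus strand, with 56.4 kb between them. Their promoter windows in RefSeq (GRCh38.p14, plus strand, 250 bases before to 50 bases after the annotated start) are shown because these adjacent ligand genes were both higher in PARGi and share a motif. Capitals mark the TATA box letters TATAAA, found in both, and in AREG also the cyclic-AMP response element (CRE) letters TGACGTCA.
AREG, chr4:74444886-74445185: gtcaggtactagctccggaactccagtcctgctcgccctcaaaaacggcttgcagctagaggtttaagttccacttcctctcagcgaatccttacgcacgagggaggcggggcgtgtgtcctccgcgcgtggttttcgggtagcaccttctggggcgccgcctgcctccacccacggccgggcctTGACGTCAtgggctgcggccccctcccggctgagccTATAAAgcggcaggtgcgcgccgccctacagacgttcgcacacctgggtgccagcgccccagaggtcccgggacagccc
EREG, chr4:74364895-74365194: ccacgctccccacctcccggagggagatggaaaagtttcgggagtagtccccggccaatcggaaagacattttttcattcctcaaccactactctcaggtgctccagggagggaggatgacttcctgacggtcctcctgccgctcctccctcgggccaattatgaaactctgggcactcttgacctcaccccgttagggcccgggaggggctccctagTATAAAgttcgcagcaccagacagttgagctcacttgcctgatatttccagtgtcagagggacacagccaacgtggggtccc
The TATA box match began 29 bases before the annotated start in AREG (position -29) and 32 bases before it in EREG (position -32), and the CRE match of AREG began at position -65. At any position and on either strand, TATAAA occurred in 11.5% and TGACGTCA in 1.85% of the 35116 promoter windows of this length in the table. The share with a match at these positions was not counted. A match is a run of letters and was not measured as a binding site here.

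The chromosome 4 cluster holds further EGF-family ligands. EPGN lies 49.8 kb before EREG, and BTC lies 289.7 kb beyond AREG on the opposite strand. EPGN went from 0.129 ± 0.0249 CPM with DMSO to 0.158 ± 0.0525 with PARGi, and BTC from 0.411 ± 0.0693 to 0.493 ± 0.0833 CPM (SD, n = 3 each). Neither passed the test (log2 fold change 0.26, SE 0.42, edgeR adjusted p = 0.713 for EPGN, and 0.27, SE 0.26, adjusted p = 0.492 for BTC). The interval of BTC, from -0.26 to 0.80, contains 0 and the estimate for EREG, but not that for AREG. That of EPGN, from -0.61 to 1.13, contains 0 and the estimates for both EREG and AREG.

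TGFA, which encodes transforming growth factor alpha, was the second most abundant of the 5 ligands. It stood at 26.0, 27.6 and 26.0 CPM in DMSO and at 34.3, 35.5 and 34.2 CPM in PARGi, without overlap. Its log2 fold change was 0.39 (SE 0.037, 95% confidence interval from 0.31 to 0.46). NRG1, which encodes neuregulin 1, stood at 5.92, 6.11 and 6.81 CPM in DMSO and at 8.24, 8.39 and 8.08 CPM in PARGi. DMSO replicate 3 was the highest of its group and still lay below every PARGi library. NRG1 also had a log2 fold change of 0.39, with a wider interval from 0.25 to 0.53 (SE 0.068). The intervals of TGFA and NRG1 both lie below that of HBEGF.

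**Figure D2:**
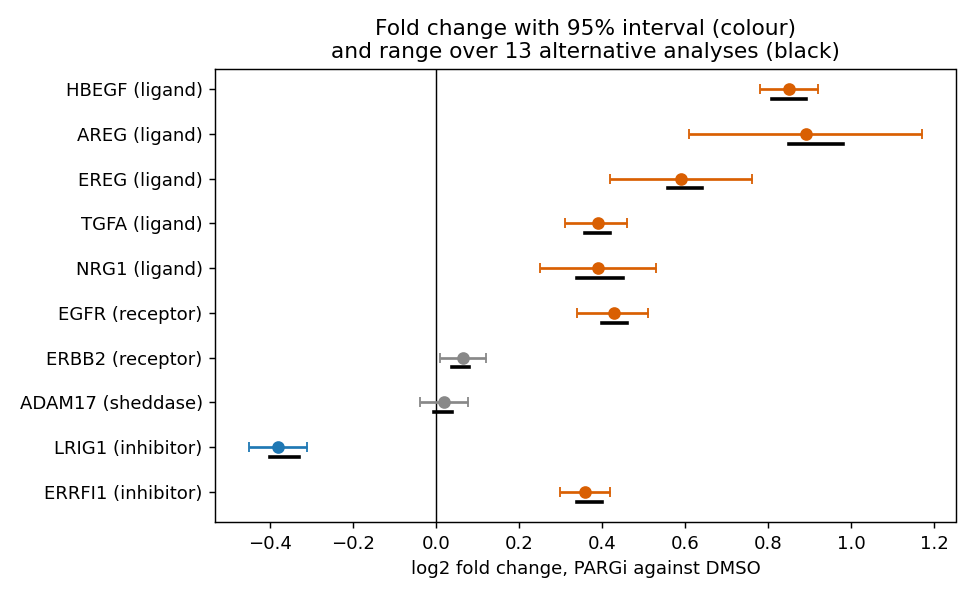
Log2 fold change of PARGi against DMSO (horizontal axis) for each gene, with its 95% confidence interval (coloured bars; orange higher and blue lower past an adjusted p of 0.05, grey not past it) and, in black, the range over 13 alternative analyses. HBEGF (0.85) and AREG (0.89) lie farthest to the right and LRIG1 (-0.38) is the one gene wholly to the left of 0.

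The summed level of the 5 ligands was 108, 107 and 111 CPM in DMSO and 170.3, 181 and 183 CPM in PARGi, a log2 difference of 0.71. This sum follows HBEGF. Levels per kilobase of exon let genes of unlike length be compared, with lengths that count all annotated exons, used or not. On that scale HBEGF made up 72.3% ± 1.05 of the summed level of all 11 EGF-family ligand genes with DMSO and 78% ± 0.857 with PARGi (SD, n = 3 each). The 6 ligand genes outside the group of 10 (EGF, BTC, EPGN, NRG2, NRG3 and NRG4) together made up 5.48% ± 0.38 in DMSO and 3.57% ± 0.111 in PARGi, and NRG3, at 0.992 ± 0.0702 CPM per kilobase in DMSO, was the highest of them.

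The receptors differed from each other. EGFR stood at 23.2, 23.9 and 23.7 CPM in DMSO and at 29.9, 32.7 and 32.4 CPM in PARGi, so that the groups were far apart. Its log2 fold change was 0.43 (SE 0.040, 95% confidence interval from 0.34 to 0.51), a rise of 34.3%. ERBB2, the more abundant receptor, stood at 89.0, 89.4 and 91.4 CPM in DMSO and at 96.1, 92.5 and 93.9 CPM in PARGi. Its 3 PARGi libraries lay just above the DMSO libraries, and the log2 fold change of 0.065 (SE 0.027, 95% confidence interval from 0.0095 to 0.12) did not pass the threshold over all genes. It passed without DMSO replicate 3, at 0.08. Per kilobase, ERBB2 stood at 4.66, 4.54 and 4.68 times EGFR in the DMSO libraries and 3.90, 3.43 and 3.52 times in the PARGi libraries. These ratios rest on the lengths of all annotated exons, used or not.

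ERBB3 and ERBB4, the receptors that bind NRG1, were scarce. ERBB3 stood at 1.61, 1.35 and 1.49 CPM in DMSO and at 1.03, 0.771 and 1.34 CPM in PARGi, where replicate 3 almost reached the lowest DMSO library. It fell by the edgeR test (log2 fold change -0.49, SE 0.18, adjusted p = 0.0453), against the direction of EGFR. That call was lost with DESeq2 (adjusted p = 0.0721) and without DMSO replicate 1 (0.146), DMSO replicate 3 (0.0734), PARGi replicate 1 (0.108) or PARGi replicate 2 (0.26, log2 fold change -0.30), by edgeR's adjusted p. Without PARGi replicate 3, the log2 fold change was -0.73. ERBB4 had 0.272 ± 0.0796 CPM with DMSO and 0.276 ± 0.00675 with PARGi (SD, n = 3 each) and did not pass. Of the 8 ligand and receptor genes outside the 10, ERBB3 was the only one to pass the test in edgeR, none passed as higher in edgeR, DESeq2 or limma-voom, and none was higher at an unadjusted p under 0.05 either. Their median log2 fold change was 0.11.

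**Figure D3:**
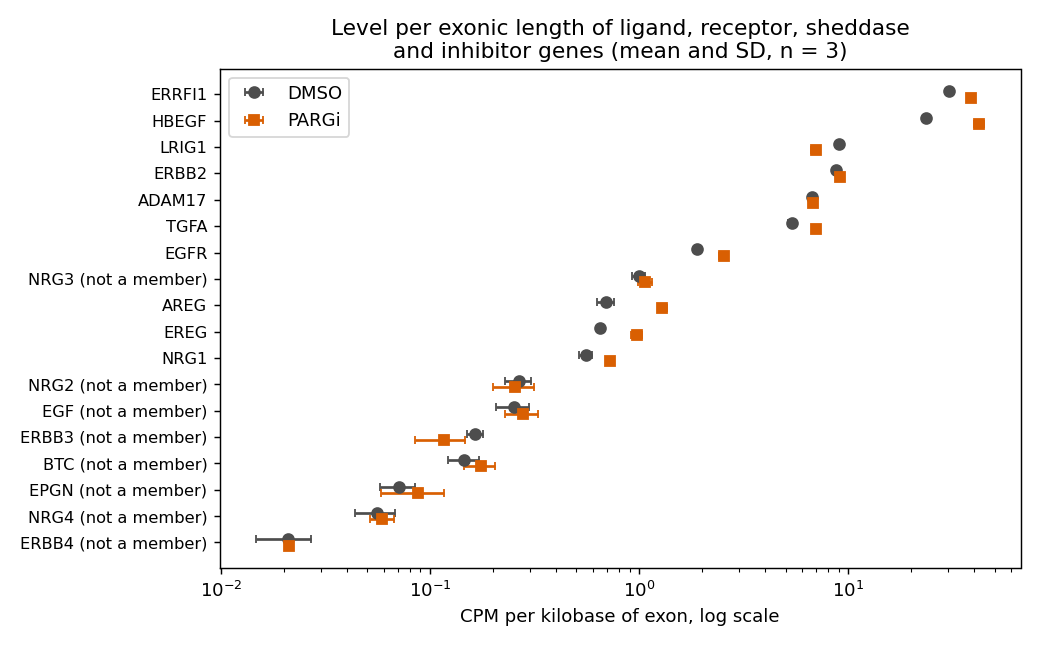
Level per kilobase of exon (horizontal axis, log scale) of the 10 genes and of the 8 other EGF-family ligand and receptor genes; circles are DMSO means, squares PARGi means, and bars the SD over 3 libraries. ERRFI1 and HBEGF lead at 30.1 and 23.5 CPM per kilobase in DMSO, and ERBB4 is lowest.

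ADAM17, the protease that sheds HBEGF, AREG, EREG and TGFA among others, stood at 72.7, 72.0 and 71.9 CPM in DMSO and at 70.8, 73.9 and 74.6 CPM in PARGi. The groups overlapped, with PARGi replicate 1 below all DMSO libraries and the others above them. The log2 fold change was 0.02 with a 95% confidence interval from -0.039 to 0.078, which covers changes from -2.64% to 5.56%, and with upper-quartile scaling it was -0.0048. In a list of 9 further genes of ligand shedding, 4 rose and 5 did not pass, where 13.2% of all tested genes rose, and the median log2 fold change was 0.11. None fell in edgeR, DESeq2 or limma-voom, and none was lower at an unadjusted p under 0.05. ADAM15, another membrane protease, rose from 52.9 ± 1.36 to 67.9 ± 0.118 CPM (SD, n = 3 each, log2 fold change 0.36, SE 0.029, edgeR adjusted p = 2.21e-09). RHBDF2, which encodes the ADAM17 partner iRhom2, rose from 11.7 ± 0.8 to 13.7 ± 0.375 CPM (log2 fold change 0.22, edgeR adjusted p = 0.00485), and FRMD8, which stabilises iRhoms, rose by a log2 fold change of 0.11 (edgeR adjusted p = 0.00491). TIMP3, a secreted inhibitor of ADAM17, rose as well (log2 fold change 0.13, edgeR adjusted p = 0.0011). ADAM10, the sheddase of BTC and EGF, stood at 179 ± 7.56 and 185 ± 3.66 CPM and did not pass.

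The 2 inhibitors went in opposite directions. ERRFI1, which encodes the cytosolic EGFR inhibitor MIG6, stood at 126, 124 and 128 CPM in DMSO and at 153, 165 and 167 CPM in PARGi. All PARGi libraries were above all DMSO libraries, with PARGi replicate 1 the lowest of its group. For ERRFI1 the log2 fold change was 0.36 (SE 0.030, 95% confidence interval from 0.30 to 0.42). LRIG1, which encodes a membrane protein that promotes receptor degradation, stood at 64.1, 64.6 and 62.1 CPM in DMSO and at 50.5, 50.5 and 45.9 CPM in PARGi. Every PARGi library was below every DMSO library. The log2 fold change was -0.38 (SE 0.035, 95% confidence interval from -0.45 to -0.31), a change of -23.1%.

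Within the PARGi group the libraries did not rank alike for all genes. Replicate 1 was the lowest for HBEGF, AREG, EGFR, ADAM17 and ERRFI1 and the highest for EREG and ERBB2. The log2 fold change of HBEGF ran from 0.81 without PARGi replicate 3 to 0.89 without PARGi replicate 1. That of AREG was lowest (0.85) without DMSO replicate 2 and highest (0.98) without DMSO replicate 3.

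In order of level per kilobase, DMSO cells had ERRFI1 (30.1), HBEGF (23.5), LRIG1 (9.05), ERBB2 (8.72), ADAM17 (6.71), TGFA (5.35), EGFR (1.88), AREG (0.691), EREG (0.646) and NRG1 (0.555 CPM per kilobase). The ranges of LRIG1 and ERBB2 overlapped, as did those of AREG and EREG, and all other neighbours were apart. In PARGi, HBEGF at 42.2 ± 2.28 stood beside ERRFI1 at 38.6 ± 1.81 CPM per kilobase (SD, n = 3 each), with overlapping ranges. TGFA (6.99), LRIG1 (6.97) and ADAM17 (6.80 CPM per kilobase) overlapped too. The lengths are those of all annotated exons, from 1648 bases in AREG to 12521 in EGFR, so genes with long unused exons are placed too low.

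A list of 15 genes linked to receptor turnover or inactivation was read, without a measure of their effect on receptors. Of the 15, 14 had enough counts. Of these, 2 rose, 3 fell and 9 did not pass, where 24.3% of all tested genes passed, and the median log2 fold change was -0.021. With upper-quartile scaling, 1 rose and 3 fell. LRIG3, the paralogue of LRIG1, fell from 49.9 ± 2.85 to 37.8 ± 1.92 CPM (SD, n = 3 each, log2 fold change -0.40, SE 0.041, edgeR adjusted p = 7.56e-08). LRIG2 went from 25.3 ± 1.14 to 23.8 ± 0.223 CPM and did not pass (log2 fold change -0.087, SE 0.041, edgeR adjusted p = 0.133). PTPN1, which encodes a phosphatase that acts on EGFR, rose (log2 fold change 0.14, edgeR adjusted p = 0.000408). SOCS5 fell (-0.11, edgeR adjusted p = 0.00705) and SOCS4 rose (0.093, edgeR adjusted p = 0.0269). SOCS5 missed the threshold without DMSO replicate 1 (edgeR adjusted p = 0.0507), and SOCS4 missed it without DMSO replicate 3 (0.0623) or PARGi replicate 2 (0.241). The list's count of calls went from 5 to 3 without DMSO replicate 1 and without PARGi replicate 2. CBL, the main ubiquitin ligase of EGFR, did not pass (66.0 ± 2.34 to 70.0 ± 3.98 CPM).

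The pathway core was read as a further list. Of 23 adaptor, RAS-ERK and PI3K genes, 6 rose, 1 fell and 16 did not pass, where 24.3% of all genes passed, and the median log2 fold change was 0.026. With upper-quartile scaling, 2 rose and 2 fell. PIK3CA, the catalytic subunit p110 alpha of PI3K, rose from 39.4 ± 1.36 to 44.0 ± 1.87 CPM (SD, n = 3 each, log2 fold change 0.16, edgeR adjusted p = 0.00208) and HRAS from 39.3 ± 1.6 to 43.4 ± 1.19 CPM (0.14, edgeR adjusted p = 0.00564). AKT1 rose (0.076) and AKT2 fell (-0.073), each with an edgeR adjusted p of 0.0312. AKT1 missed the threshold without DMSO replicate 1 or any PARGi library (edgeR adjusted p from 0.052 to 0.158), and AKT2 without DMSO replicate 3 or any PARGi library (from 0.0607 to 0.162). The count of calls fell from 7 to 3 without DMSO replicate 1 or PARGi replicate 1, and to 2 without PARGi replicate 2 or 3.

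Of 14 transcripts known to follow ERK activity, 11 had enough counts, and of these 6 rose, 1 fell and 4 did not pass, where 13.2% of all tested genes rose and 11.0% fell. With upper-quartile scaling, 5 rose and 2 fell. DUSP5, a nuclear ERK phosphatase, rose from 27.3 ± 0.81 to 47.2 ± 0.995 CPM (SD, n = 3 each, log2 fold change 0.79, SE 0.035, edgeR adjusted p = 7.7e-14). EGR1, an immediate-early transcription factor, rose from 80.2 ± 7.15 to 110.0 ± 1.73 CPM (0.45, edgeR adjusted p = 9.86e-09), and IER3 from 197 ± 7.14 to 239 ± 3.03 CPM (0.28, edgeR adjusted p = 3.67e-08). PHLDA1 fell from 249.7 ± 6.87 to 194 ± 8.76 CPM (-0.37, edgeR adjusted p = 2.24e-09). DUSP6, the cytosolic ERK phosphatase, went from 0.732 ± 0.0382 to 0.698 ± 0.0312 CPM and did not pass, and DUSP4, SPRY1 and SPRY4 were too low to test. The list's median of 0.085 therefore covers members on both sides. This list too was chosen with earlier results of these data known, so its counts are a description.

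**Figure D4:**
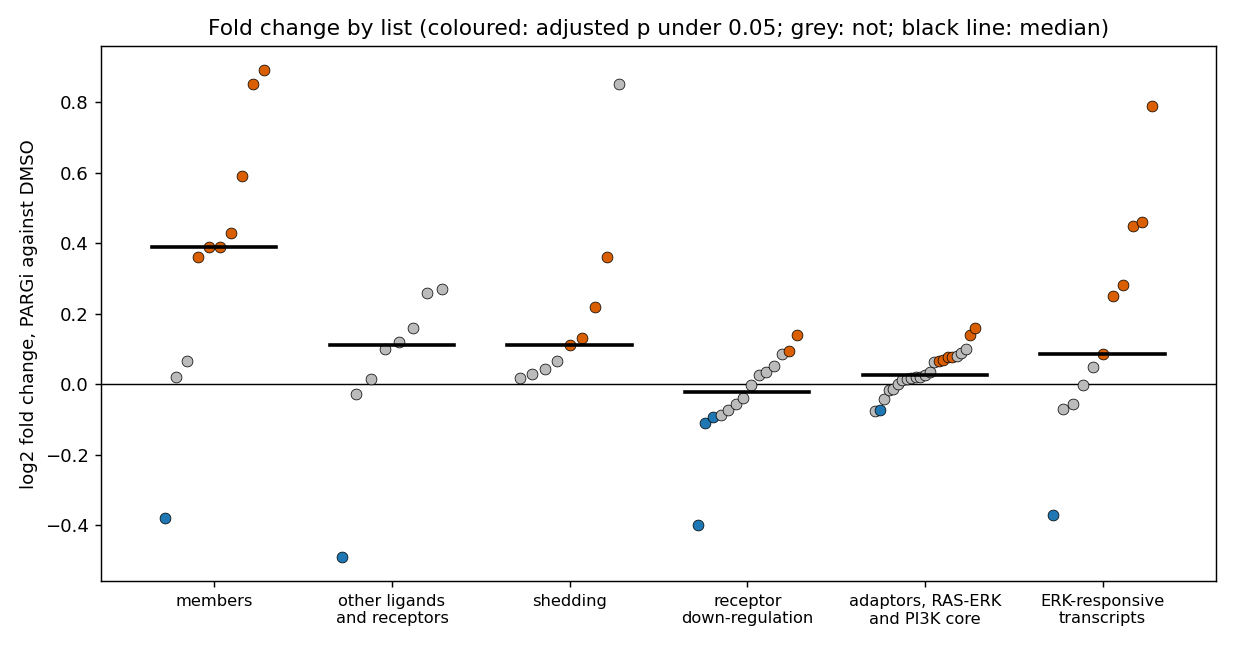
Log2 fold change of PARGi against DMSO (vertical axis) for the tested genes of each list; each point is a gene, orange or blue where it passed an adjusted p of 0.05 as higher or lower and grey where it did not, and the black line is the list's median. Medians run from -0.021 for receptor down-regulation to 0.39 for the 10 genes, which were chosen with this contrast known. The other lists were also chosen with earlier results of these data known.

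Promoter windows were in the RefSeq table for 9 of the 10 genes, with 14 annotated starts among them. NRG1 was not in it. Windows 1 and 2 of LRIG1 overlap, so the 14 are not separate, and which starts are used in these cells was not measured. Besides the TATA box and the CRE, the letters TGANTCA (AP-1) and GCGNGGGCG (EGR) were searched on both strands. The TATA box letters TATAAA were in 3 of the 14 windows: AREG, EREG and an internal start of EGFR (positions -146 and -36). Other forms of the TATA box were not searched, such as the letters TATATATA in the ERRFI1 window. The CRE letters were in 1 of the 14, that of AREG. The AP-1 letters, with any base at N, were in 3 of the 14 windows and in 7.71% of all windows. Internal starts of EGFR and LRIG1 each held TGAGTCA and TGACTCA, and the start of ERBB2 held TGATTCA. The share of all windows with TGAGTCA or TGACTCA alone was not counted. The EGR letters were in 0 of the 14 and in 9.43% of all windows. The HBEGF window held none of the 4 motifs, which says only that those letters are not in it. It is shown as that of the most abundant ligand (RefSeq, GRCh38.p14, minus strand, read in the direction of transcription, all in lower case since nothing matched).
HBEGF, chr5:140346554-140346853: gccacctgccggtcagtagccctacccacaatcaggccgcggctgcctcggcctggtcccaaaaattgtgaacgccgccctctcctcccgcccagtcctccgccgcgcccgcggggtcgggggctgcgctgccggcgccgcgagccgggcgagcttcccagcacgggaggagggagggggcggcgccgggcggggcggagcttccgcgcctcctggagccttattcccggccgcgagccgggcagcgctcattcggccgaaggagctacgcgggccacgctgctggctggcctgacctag
Its share of G and C was 75.0%, against 66.3% in AREG and 57.7% in EREG.

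**Figure D5:**
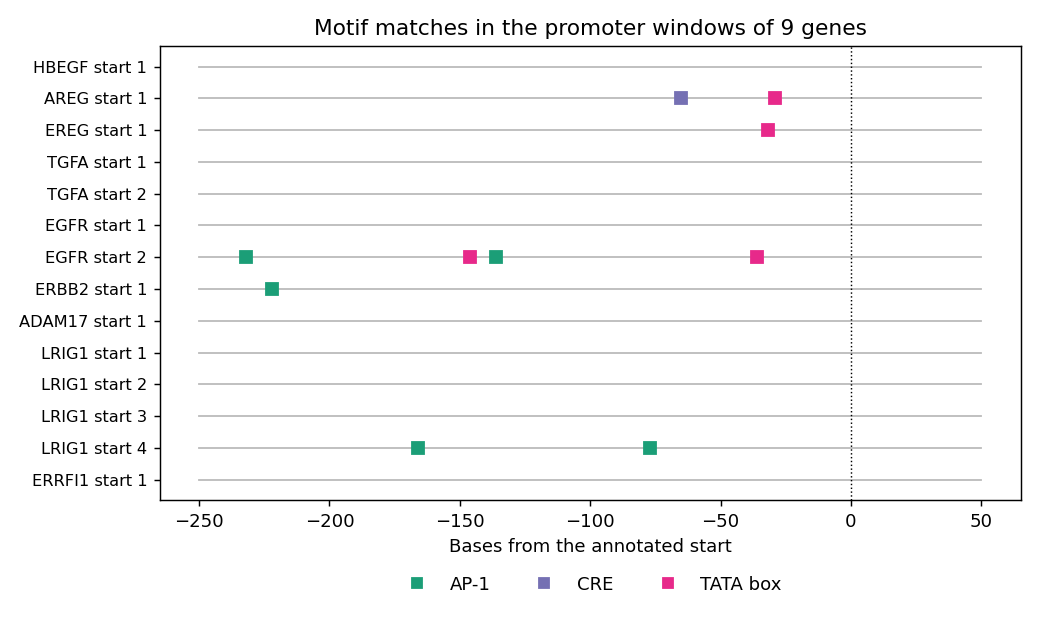
Positions of AP-1, CRE and TATA box matches in the 14 promoter windows of 9 genes, in bases from the annotated start (dotted line); the EGR letters had no match. The AREG and EREG windows each hold the letters TATAAA at about 30 bases before the start. An internal start of EGFR holds them at positions -146 and -36, and other forms of the TATA box were not searched. Of the 14 windows, 9 hold none of the searched letters.

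EGFR, ERBB2, ADAM17, LRIG1 and ERRFI1 share exonic bases with a gene on the other strand. Whether the counts separate the strands was not settled, so how reads from the shared bases were assigned is not known. The largest such overlaps were those of LRIG1 with SLC25A26 (12.9% of its exonic length) and of ADAM17 with IAH1 (12.3%). SLC25A26 went from 24.7 ± 0.431 CPM with DMSO to 22.9 ± 0.486 with PARGi (SD, n = 3 each). Its log2 fold change of -0.11 (SE 0.039, edgeR adjusted p = 0.0499) was closer to 0 than that of LRIG1. IAH1 did not pass (log2 fold change -0.017, edgeR adjusted p = 0.819). EGFR-AS1, opposite EGFR, had no counts in DMSO and 0.00414 ± 0.00718 CPM in PARGi. None of the 10 genes shares exonic bases with a gene on its own strand in GENCODE 29.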

How the data were processed

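RNA was measured in 6 U2OS libraries made with a stranded total RNA kit, per the labels' protocols. The authors deposited a raw, unnormalised count for each versioned Ensembl gene identifier. The submitters' processing notes name cutadapt 1.18, STAR 2.7.3a, SAMtools 1.9, deepTools, DESeq2 3.12 and hg38, without their roles. The annotation release and the handling of multimapped reads are not given in the sources used here. Of 399 genes with at least 95% of their exons inside an abundant gene of the opposite strand, 351 had counts. The median over the 399 was 0.701% of that gene's level per base. Counting without strand that drops reads shared between genes could also give low values, so whether the counts are strand-specific was not settled.

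Gene symbols were matched by identifier, and positions and exonic lengths came from GENCODE 29 (GRCh38). Genes were tested with edgeR 4.0.16 (R 4.3.3): low counts were removed by filterByExpr, libraries scaled by TMM, and treatment tested two-sided by glmQLFTest after glmQLFit, with Benjamini-Hochberg adjustment over all tested genes and a threshold of 0.05. Standard errors were derived from the F statistic, as the unsigned change over the root of F. The code was tested on simulated data. The alternatives used DESeq2 1.42.0, limma-voom (limma 3.58.1), other scalings and filters, a replicate block, and each library left out in turn. No library duplicated another (chi-square per degree of freedom within groups, 2.28 to 6.18). Counting error is a lower limit, since no molecular identifiers are recorded.

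The members and lists were chosen with earlier results of these data known. The text names the 10 genes, and up to 4 genes of each list that passed, those with the smallest p. It also names the 3 tested genes of at least 1 CPM nearest in profile to the member with the largest change. Other genes were named after their values were seen. Figures were drawn with matplotlib 3.10.9.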

Additional observations from a re-analysis of the deposited data

How the results depend on the processing

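Of the 10 genes, the 8 that passed the threshold kept it and their direction in all 13 alternatives. ADAM17, which did not pass, went from 0.02 to a log2 fold change of -0.0048 with upper-quartile scaling, where the median of all genes was -0.032, and the cause was not tested. The count of the 10 genes called ran from 8 to 9 with a library left out, and that of all genes from 3607 to 4848 against 4951. The log2 difference of the summed ligands ran from 0.69 to 0.74 with a library left out.

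The number of core signalling genes called went from 7 to 4 with upper-quartile scaling, and to between 2 and 6 with a library left out. Calls among other ligands and receptors went from 1 to 0 with DESeq2 (1 at an unadjusted p under 0.05, and 1 call with limma-voom), and to between 0 and 1 with a library left out. Those for receptor down-regulation ran from 3 to 6 instead of 5. The cause was not tested. Of 17 other pathway genes named by rule, 12 kept their call in every alternative. Besides the losses given above, AKT1 (adjusted p = 0.166) and SOCS4 (0.108) missed it with upper-quartile scaling, and AKT2 (0.0684) with no filter on low counts. All of these are adjusted p-values from edgeR.

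The groups share replicate numbers, but no label ties them. Deviations of same-numbered libraries correlated between -0.00784 and 0.0157, and DMSO replicate 1 correlated best with PARGi replicate 3 (0.0354). With the replicate number as a block, 4553 genes, 8 of the 10 genes and 2 of the core signalling genes were called, and AKT1 and AKT2 missed the threshold (edgeR adjusted p = 0.0519 and 0.0601). Few counts limit the precision of AREG and of the scarcer ligands and receptors outside the 10 genes, with standard errors up to 0.42 (EPGN).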

Other observations

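Over 6 libraries, 3 genes lay nearest to AREG, among 14858 whose mean reached 1 CPM, in their centred log2 CPM values. They were SCN2A, a sodium channel gene (0.97 ± 0.127 to 1.82 ± 0.0601 CPM, log2 fold change 0.90), HBEGF, and GRIN2C, a glutamate receptor gene (0.972 ± 0.01 to 1.75 ± 0.101 CPM, 0.85; SD, n = 3 each). Their Euclidean distances were 0.126, 0.153 and 0.195. The distance is a description of these libraries and is governed by the difference between the groups. SCN2A and GRIN2C lay below 1 CPM in DMSO (0.97 and 0.972) and reached the required mean only through PARGi. HBEGF is one of the 10 genes, which were chosen with this contrast known.

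Other genes of the fixed lists moved with the group as well. FOSL1, an AP-1 subunit, rose from 26.4 ± 2.86 to 36.6 ± 1.21 CPM (SD, n = 3 each, log2 fold change 0.46, edgeR adjusted p = 3.47e-07) and SPRY2, a feedback inhibitor, from 31.1 ± 1.31 to 37.1 ± 1.74 CPM (0.25, edgeR adjusted p = 5.04e-05). Among the mesenchymal and bone genes, COL1A2 fell from 13 ± 1.38 to 7.41 ± 0.685 CPM (-0.80, edgeR adjusted p = 1.6e-08) and RUNX2 from 83.3 ± 1.14 to 69 ± 0.606 CPM (-0.27, edgeR adjusted p = 4.96e-08), while COL1A1 did not pass (0.012, edgeR adjusted p = 0.816). SPARC fell as well (-0.083, edgeR adjusted p = 0.00653). ALPL of the same list rose from 4.68 ± 0.208 to 5.52 ± 0.437 CPM (0.23, edgeR adjusted p = 0.0364). In all, 1 of the list's 6 tested genes rose and 3 fell, where 13.2% of all tested genes rose and 11.0% fell. FOSL1, SPRY2, COL1A2, RUNX2, SPARC and ALPL were named after their values were seen.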
